A study of Mus musculus with 16 samples.

Results

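The 10 genes described here encode the core of MHC class I antigen presentation: the classical heavy chains *H2-K1* and *H2-D1*, the shared light chain *B2m*, the peptide transporter subunits *Tap1* and *Tap2*, the loading chaperone tapasin (*Tapbp*), the non-classical heavy chains *H2-Q7* and *H2-T23*, and the class I-like genes *Mr1* and *Cd1d1*. They were found by gene symbol, and all 10 were found among the 54347 genes of the deposited table.

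RNA was sequenced from 2 sorted bone marrow populations of 2 genotypes, with 4 mice per genotype and population, giving 4 groups and 16 libraries. The labels do not say whether both populations were sorted from the same mice. URE mice carry a homozygous germline deletion of the upstream regulatory element, an enhancer of *Spi1*, the gene of the transcription factor PU.1. WT mice were littermates on the same C57BL/6 background, and all mice were untreated and 8 to 12 weeks old. LSKs (Lin-Sca-1+c-Kit+ cells, which hold stem cells and multipotent progenitors) and GMPs (Lin-Sca-1-c-Kit+CD16/32+ cells, the granulocyte-monocyte progenitors) were sorted from both genotypes. The comparisons ask how the class I genes differ between genotypes within each population, between the populations within each genotype, and whether the genotype difference is of another size in GMPs than in LSKs. Since whole sorted populations were sequenced, fewer cells of a type and less RNA per cell cannot be told apart.

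*Spi1* was checked first. It lay at 69.6, 129, 137 and 165 CPM (the count of a gene relative to the effective library size) in the WT LSK libraries and at 1.16, 2.93, 3.62 and 4.49 CPM in the URE LSK libraries. In GMPs it ranged from 87.6 to 180 CPM in WT and from 15.2 to 27.5 CPM in URE, so the genotypes did not overlap in either population. Total counts ranged from 20028302 to 29128858 per library. The 7 LSK markers summed to between 1962 and 3232 CPM in LSKs and to between 448 and 1446 CPM in GMPs, whereas the 7 GMP markers summed to between 2163 and 2941 CPM in LSKs and to between 54730 and 154500 CPM in GMPs. Y-linked transcripts were present in URE replicate 1 and in WT replicates 1, 2 and 3 of both populations and near 0 in the others, so that sex was not balanced between the genotypes. Replicates 1 and 4 stood apart from replicates 2 and 3 in several of the 10 genes, and values within these sets are given beside the results they move most.

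In class I presentation, a polymorphic heavy chain pairs with beta-2-microglobulin in the endoplasmic reticulum, where the TAP transporter delivers peptides cut by the proteasome and tapasin helps to load them. The loaded complex displays samples of the cell's own proteins to CD8 T cells and is read by natural killer cells. MR1 and CD1d use the same light chain but present microbial metabolites and lipids, and interferons and the transactivator NLRC5 are known to raise many genes of the pathway.

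Of the 10 genes, 7 lie in the MHC region of chromosome 17 (GRCm38, GENCODE M21): *Tapbp* at chr17:33915899-33929292, *H2-K1* at chr17:33996017-34000347, *Tap1* at chr17:34187553-34197225, *Tap2* at chr17:34203527-34216321, *H2-D1* at chr17:35262730-35267499, *H2-Q7* at chr17:35439155-35443773 and *H2-T23* at chr17:36029773-36032855. *Mr1* lies at chr1:155127277-155146814, *B2m* at chr2:122147686-122153083 and *Cd1d1* at chr3:86995834-86999441, and all 10 are protein-coding. The promoters of *H2-K1*, *H2-Q7*, *B2m* and *Mr1* are shown as the bases from 200 to 11 upstream of the RefSeq start (GRCm38.p6, printed on the strand of the gene). Those of *H2-D1*, *Tap1*, *Tapbp* and *H2-T23* overlap an annotated exon in this window and are not printed. Capitals mark runs of at least 12 bases that the windows of *H2-K1*, *H2-D1* and *H2-Q7* share, and TGACG and GAAANNGAAA on either strand. *H2-Q6*, which is not among the 10, is shown because its sequence and its values resemble those of *H2-Q7*.
*H2-K1*, chr17:34000358-34000547, minus strand: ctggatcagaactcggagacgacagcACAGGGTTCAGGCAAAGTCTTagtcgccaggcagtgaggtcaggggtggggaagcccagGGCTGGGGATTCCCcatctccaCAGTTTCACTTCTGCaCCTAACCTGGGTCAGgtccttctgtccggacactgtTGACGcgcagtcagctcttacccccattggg
*H2-Q7*, chr17:35438955-35439144, plus strand: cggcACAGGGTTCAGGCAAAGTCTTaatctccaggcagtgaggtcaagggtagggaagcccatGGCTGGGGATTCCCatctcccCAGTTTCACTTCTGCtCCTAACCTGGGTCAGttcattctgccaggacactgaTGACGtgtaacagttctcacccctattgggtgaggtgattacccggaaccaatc
*H2-Q6*, chr17:35424650-35424839, plus strand: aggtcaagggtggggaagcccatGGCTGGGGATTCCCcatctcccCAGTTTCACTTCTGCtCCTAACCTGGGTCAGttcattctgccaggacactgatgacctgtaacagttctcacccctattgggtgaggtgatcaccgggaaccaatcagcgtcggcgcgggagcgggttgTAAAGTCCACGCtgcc
*B2m*, chr2:122147487-122147676, plus strand: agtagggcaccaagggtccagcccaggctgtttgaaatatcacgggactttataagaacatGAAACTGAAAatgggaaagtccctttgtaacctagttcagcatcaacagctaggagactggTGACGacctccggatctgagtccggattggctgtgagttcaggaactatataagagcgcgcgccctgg
*Mr1*, chr1:155146825-155147014, minus strand: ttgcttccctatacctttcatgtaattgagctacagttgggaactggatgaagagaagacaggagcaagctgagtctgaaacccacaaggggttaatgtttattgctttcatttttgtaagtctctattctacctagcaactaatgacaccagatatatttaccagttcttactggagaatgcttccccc

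Promoter windows of 300 bases (250 before to 50 after the start) were found for 8 of the 10 genes, all but *Tap2* and *Cd1d1*. The windows of *H2-K1*, *H2-D1* and *H2-Q7* shared 5 runs of at least 12 bases, and *H2-Q6* held all 5. One of them, GGCTGGGGATTCCC, contains a kappaB-type site and began at -115 from the start in *H2-K1*, -175 in *H2-D1*, -137 in *H2-Q7* and -177 in *H2-Q6*, and 0.0152% of all 32851 windows held it. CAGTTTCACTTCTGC, which resembles an interferon response element, began at -93, -153, -116 and -155 in the same order, and 0.0213% of all windows held it. The runs were taken from the *H2-K1*, *H2-D1* and *H2-Q7* windows, which are part of the 32851, so these shares are no test of enrichment. *B2m* and *H2-T23* instead held GAAANNGAAA, the core of the interferon-stimulated response element (3.44% of windows). TGACG, the core of the cAMP response element within the class I regulatory module, stood in *H2-K1*, *H2-D1*, *H2-Q7*, *B2m* and *Tap1* (20.8% of windows). It was not found in *H2-Q6*, and the *Mr1* and *Tapbp* windows held none of these letters. These are matches of letters only.

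**Figure D1:**
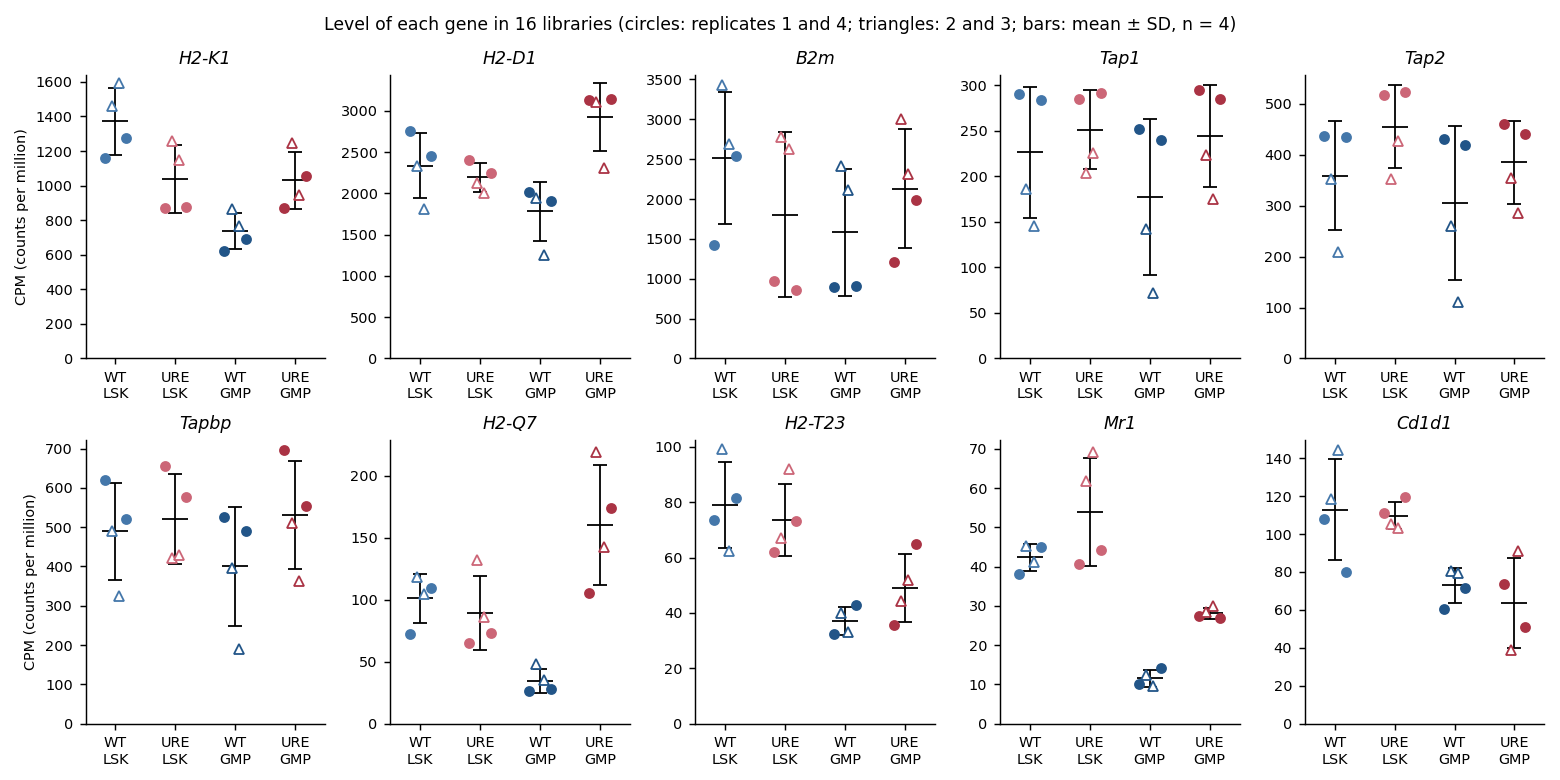
CPM of each of the 10 genes (vertical axis, from 0) in the 4 libraries of each group, with the mean and SD. *H2-Q7* and *Mr1* are lower in all 4 WT GMP libraries than in any library of the other groups, and within each group the circles of *B2m* (replicates 1 and 4) lie below its triangles (replicates 2 and 3) while those of *Tap1* and *Tap2* lie above.

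To set the genes against each other, CPM was divided by the exon length in kilobases. *B2m* had the highest level per length in every group, at 2928 ± 965 CPM per kilobase in WT LSKs (SD, n = 4) and 1839 ± 924 in WT GMPs. *H2-D1* came next, at 906 ± 152 in WT LSKs and 1134 ± 160 in URE GMPs, and *H2-K1* followed at 467 ± 65.6 in WT LSKs. These 3 were separated from each other and from the rest without overlap of their libraries in all 4 groups. *B2m* made up 61.3% ± 10.2 of the summed level of the 10 genes in WT LSKs, and *H2-D1* 20.3% ± 6.96. Without division by length, *H2-D1* had a higher mean CPM than *B2m* in every group except WT LSKs.

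The transporter and its chaperone were lower. *Tapbp* lay at 135 ± 33.9 CPM per kilobase in WT LSKs, *Tap2* at 94.9 ± 28.3 and *Tap1* at 41.3 ± 13.2, and *Tap2* lay above *Tap1* without overlap of their libraries in every group except WT GMPs. In WT LSKs, *Cd1d1* lay beside *Tap1* at 43.9 ± 10.4, *H2-T23* at 27.4 ± 5.39 and *H2-Q7* at 23.7 ± 4.70, each overlapping with its neighbour in this order. *Mr1* was last in all 4 groups without overlap, at 7.08 ± 0.565 in WT LSKs and 1.93 ± 0.353 in WT GMPs. The order of the lower genes was not the same in every group, since *H2-Q7* stood ninth in 3 groups but seventh in URE GMPs at 37.6 ± 11.3 CPM per kilobase.

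In LSKs, no class I gene passed the test between URE and WT. Calls required an over 1.5-fold difference and an adjusted p below 0.05 from edgeR's quasi-likelihood test, with the Benjamini-Hochberg adjustment made over all genes tested, which 6.14% of 15154 genes met. Among the 10, 0 were called by edgeR or by DESeq2 and 0 had an unadjusted p under 0.05 in either tool. For 0 of the 10 did the libraries of the genotypes separate without overlap, as they did for 12.6% of all genes tested. Their median log2 fold change was -0.11, against 0.00 over all genes tested.

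*H2-K1* came nearest in LSKs. It lay at 1160, 1274, 1460 and 1594 CPM in WT LSKs and at 868, 874, 1148 and 1259 CPM in URE LSKs. The URE libraries tended to be the lower ones, but both groups shared the range from 1160 to 1259 CPM. The log2 difference was -0.44 (SE 0.197, adjusted p = 0.331 in edgeR's quasi-likelihood test). URE was the lower library in all 4 pairs of the same replicate number for *H2-K1* and also for *B2m*, whose log2 difference was -0.51 (SE 0.439). For *B2m* the difference came mainly from replicates 1 and 4, at -1.18 within them and -0.19 within replicates 2 and 3. *H2-D1*, *H2-Q7*, *H2-T23* and *Cd1d1* had log2 differences between -0.22 and -0.08, and *Tap1*, *Tap2*, *Tapbp* and *Mr1* between 0.05 and 0.32, all with an SE of at least 0.172.

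In GMPs, by contrast, 3 of the 10 genes were higher in URE than in WT: *H2-Q7*, *Mr1* and *H2-D1*. None was lower. Of 13829 genes tested, 8.3% were called in this comparison, 4.67% as higher. The members' median log2 fold change was 0.47, against 0.01 over all genes, and 9 of 10 were above 0 under each of 3 scalings (TMM, DESeq2's size factors and upper quartile).

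*H2-Q7* encodes a Qa-2 antigen, a non-classical class I molecule that can be tethered to the membrane by a lipid anchor. It lay at 26.4, 27.8, 35.4 and 48.0 CPM in WT GMPs and at 105, 142, 174 and 219 CPM in URE GMPs. Every URE library thus held more than 2 times the level of the highest WT library. The mean was 4.66-fold higher in URE GMPs, with a log2 fold change of 2.24 (SE 0.274, adjusted p = 0.0015 in edgeR's quasi-likelihood test). In replicates 1 and 4 alone, where each URE library had a WT library of the same sex, it was 2.35. In replicates 2 and 3 alone it was 2.15, and 2.13 when Y-linked expression entered the fit as a covariate, and all of these passed the test.

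*Mr1*, which presents microbial vitamin B metabolites to MAIT cells, lay at 9.68, 9.98, 12.4 and 14.1 CPM in WT GMPs and at 26.8, 27.3, 28.6 and 30.0 CPM in URE GMPs. The URE libraries lay close together and well above all WT libraries. The log2 fold change was 1.31 (SE 0.195, adjusted p = 0.00381 in edgeR's quasi-likelihood test), a 2.44-fold higher mean. It was 1.14 in replicates 1 and 4 alone and 1.44 in replicates 2 and 3 alone, with adjusted p of 0.0524 and 0.123 in fits of 4 libraries, while with the Y-linked covariate it passed at 1.19 (adjusted p = 0.0216).

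*H2-D1*, the classical heavy chain with the higher level, lay at 1250, 1913, 1944 and 2016 CPM in WT GMPs and at 2306, 3113, 3136 and 3140 CPM in URE GMPs. The groups did not overlap, and in both the lowest value was that of replicate 3. The log2 fold change was 0.74 (SE 0.191) and passed edgeR's quasi-likelihood test narrowly (adjusted p = 0.0453). The call was lost in 7 of the 8 fits that left out 1 library (all but the one without URE replicate 3) and with the Y-linked covariate (adjusted p = 0.165). It was also lost in replicates 1 and 4 alone (0.66, adjusted p = 0.132), in replicates 2 and 3 alone (0.80, adjusted p = 0.278), with DESeq2's size factors in edgeR (adjusted p = 0.0510) and without the filter on low counts (adjusted p = 0.0570), while the value stayed between 0.60 and 0.81 under all alternatives.

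*H2-K1* lay at 621, 691, 768 and 865 CPM in WT GMPs and at 871, 948, 1055 and 1247 CPM in URE GMPs. The groups did not overlap, although the lowest URE library lay only just above the highest WT library. The log2 difference was 0.51 (SE 0.168) and did not pass edgeR's quasi-likelihood test (adjusted p = 0.112). With the replicate number as a block the adjusted p was 0.0300, but the difference of 0.50 stayed below the 1.5-fold limit. Thus 4 of the 10 genes had libraries that did not overlap, all of them higher in URE, where 7.27% of all genes tested were so.

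The other 6 genes did not pass the test in GMPs. *B2m* lay at 899, 905, 2111 and 2412 CPM in WT GMPs and at 1205, 1985, 2319 and 3003 CPM in URE GMPs. In both genotypes its replicates 2 and 3 were the higher ones, and the groups overlapped. The log2 difference was 0.45 (SE 0.393), at 0.81 within replicates 1 and 4 and 0.27 within replicates 2 and 3. *Tap1*, *Tap2*, *Tapbp* and *H2-T23* differed by between 0.36 and 0.49, and each was higher in URE in 4 of 4 pairs of the same number. The transporter and tapasin values moved when 1 library was left out, and without WT GMP replicate 3 they were 0.22 for *Tap1*, 0.07 for *Tap2* and 0.19 for *Tapbp*. Within replicates 1 and 4 these 3 lay at 0.22, 0.07 and 0.28, and within replicates 2 and 3 at 0.95, 0.84 and 0.63. *Cd1d1* was the exception, with a log2 difference of -0.18 (SE 0.273) and 2 of 4 pairs in each direction.

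**Figure D2:**
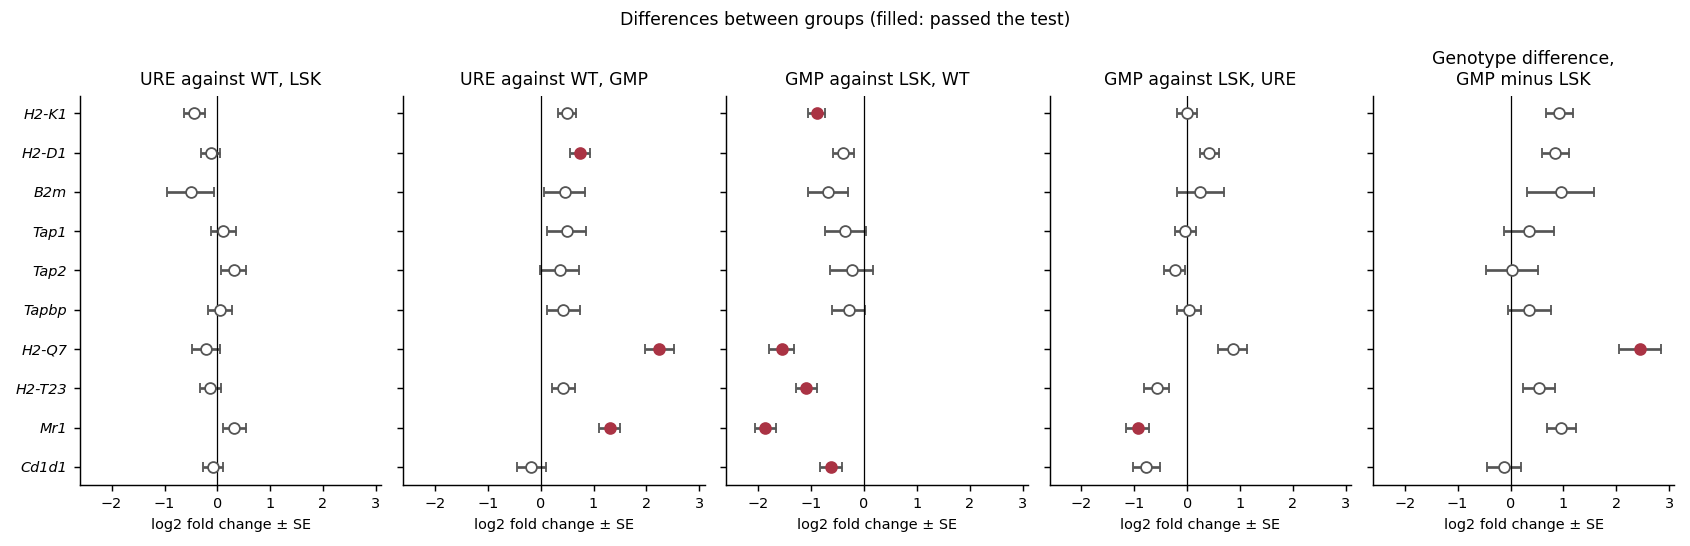
Log2 fold change of each gene (points, with the SE of the fit as bars) in the 4 comparisons and for the interaction. Filled points passed the test: none for URE against WT in LSKs, *H2-D1*, *H2-Q7* and *Mr1* in GMPs, 5 genes for GMP against LSK in WT, *Mr1* alone in URE, and *H2-Q7* for the interaction.

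Some sets of cell markers differed by genotype in GMPs, and those described here are not all that were listed. The 7 GMP markers themselves summed to between 54730 and 73320 CPM in WT GMPs and to between 72840 and 154500 CPM in URE GMPs. The 13 markers of MHC class II and dendritic cells summed to between 430 and 619 CPM in WT GMPs. In URE GMPs they summed to between 129 and 219 CPM. Of 10 tested, 6 were lower in URE, among them *Cd74*, the class II invariant chain, where 3.63% of all genes tested were lower. *Ccr9* of this list went the other way, at 0.120 ± 0.0981 CPM in WT GMPs and 2.545 ± 2.183 in URE GMPs (SD, n = 4). Its libraries did not overlap, though its level was low. The 6 late neutrophil granule genes summed to between 45.5 and 148 CPM in WT and to between 244 and 994 CPM in URE. The 8 markers of T and natural killer cells summed to 574 to 968 CPM in WT and to 1328 to 2141 CPM in URE. Nearly all of it was *Nkg7*. *Cd3e* had a count of 0 in both groups, whereas the highest count of *Cd3d* was 11 in WT and 9 in URE. That of *Cd3g* was 0 in WT and 7 in URE. Of 9 monocyte markers 4 were lower in URE, beside 3.63% of all genes tested. The sums of the 9 overlapped, at 495 to 927 against 403 to 1281 CPM, through *Ly6c2* (308 ± 151 CPM in WT and 613 ± 388 CPM in URE, SD, n = 4). Without *Ly6c2*, left out after its values were seen, the other 8 summed to between 366 and 527 CPM in WT GMPs and to between 53.9 and 134 CPM in URE GMPs, without overlap. Of 5 markers of mast cells and basophils, 1 was higher and 2 were lower in URE, beside 4.67% and 3.63% of all genes tested. Their sums overlapped between genotypes, at 636 to 1276 against 816 to 2292 CPM. The 5 stromal and endothelial markers summed to between 1.35 and 3.12 CPM in WT GMPs and to between 4.72 and 21.8 CPM in URE GMPs, most of it *Col1a2* in URE (log2 fold change 4.29, adjusted p = 0.00579 in edgeR's quasi-likelihood test). *Cd79b*, a B cell receptor subunit singled out after its values were seen, was lower in URE GMPs (-2.31, adjusted p = 0.00349 in edgeR's quasi-likelihood test). It went from 75.3 ± 11.0 to 15.0 ± 6.69 CPM (SD, n = 4), without overlap. In the same list of 8 B lineage markers, the means of *Vpreb1* (1.34 CPM in WT GMPs, 2.67 in URE GMPs) and *Igll1* (1.095 and 1.468 CPM) went the other way. The rest of that list lay lower than these in both groups. Some sums also differed in LSKs without overlap. In WT and URE LSKs, mast cell and basophil markers summed to 23.7 to 45.2 and 89.9 to 155.5 CPM. Late neutrophil granule genes summed to 35.4 to 179.6 and 182.2 to 361 CPM. Monocyte markers without *Ly6c2* summed to 45.9 to 91.8 and 22.6 to 45.0 CPM. Stromal and endothelial ones summed to 1.39 to 6.48 and 10.9 to 31.3 CPM. Those of class II and dendritic cells and of T and natural killer cells overlapped in LSKs. The part of these populations in the class I differences was not tested.

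The second set of comparisons asks how GMPs differ from LSKs of the same genotype. In WT mice, 5 of the 10 class I genes were lower in GMPs: *Mr1*, *H2-Q7*, *H2-T23*, *H2-K1* and *Cd1d1*. The remaining 5 also had log2 differences below 0 under each of the 3 scalings but did not pass. Of 14767 genes tested, 27.3% were called here, 15.8% as lower. The members' median was -0.65, against -0.09 over all genes.

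The WT GMP values of *Mr1*, *H2-Q7* and *H2-K1* are those given above. *Mr1* lay at 38, 41.3, 44.9 and 45.2 CPM in WT LSKs, so that its mean was 3.67-fold higher there than in WT GMPs. The log2 fold change was -1.87 (SE 0.198, adjusted p = 0.000252 in edgeR's quasi-likelihood test). *H2-Q7* lay at 72.2, 105, 109 and 118 CPM in WT LSKs, 2.94-fold higher in the mean than in WT GMPs, with a log2 fold change of -1.56 (SE 0.239, adjusted p = 0.00161).

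*H2-K1* differed by -0.90 (SE 0.162, adjusted p = 0.00344), its libraries lying from 1160 to 1594 CPM in WT LSKs and from 621 to 865 CPM in WT GMPs. *H2-T23*, which encodes Qa-1, the ligand of the NKG2A receptor of natural killer cells, lay at 62.3, 73.5, 81.7 and 99.2 CPM in WT LSKs and at 32.4, 33.1, 40.0 and 42.9 CPM in WT GMPs. It fell by 1.09 on the log2 scale (SE 0.199, adjusted p = 0.00355 in edgeR's quasi-likelihood test). In replicates 2 and 3 alone the call was lost at -1.07 (adjusted p = 0.0510), while in replicates 1 and 4 alone it passed at -1.01. For these 4 genes every GMP library lay below every LSK library, as was so for 17.9% of all genes tested. *Cd1d1*, which presents lipids to natural killer T cells, lay between 80.1 and 144 CPM in WT LSKs and between 60.6 and 80.4 CPM in WT GMPs. Its log2 fold change of -0.62 (SE 0.2) passed narrowly (adjusted p = 0.0442 in edgeR's quasi-likelihood test), and the call was lost without 7 of the 8 libraries in turn (all but WT LSK replicate 4) and under 8 more alternatives.

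*H2-D1* did not pass between WT populations, at -0.39 (SE 0.199, adjusted p = 0.178 in edgeR's quasi-likelihood test). *B2m* lay at 1418, 2538, 2688 and 3429 CPM in WT LSKs and overlapped with WT GMPs, although the GMP library was the lower one in 4 of 4 pairs of the same number. Its log2 difference was -0.68 (SE 0.386), and with the replicate block it passed the test at -0.75 (adjusted p = 0.00687), which brought the count to 6. It was -1.11 in replicates 1 and 4 alone but -0.36 in 2 and 3 alone, neither passing, and -0.41 without WT GMP replicate 1. With the block, 25.1% of all genes were called as lower. *Tap1*, *Tap2* and *Tapbp* differed by between -0.35 and -0.23, and without WT GMP replicate 3 *Tap2* turned to 0.08.

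In URE mice, 1 of the 10 genes was lower in GMPs, *Mr1*, and none was higher. Of 14395 genes tested, 21.8% were called, 12.6% as lower. *Mr1* lay at 40.8, 44.1, 61.9 and 69.3 CPM in URE LSKs, above all 4 URE GMP libraries, and the log2 fold change was -0.94 (SE 0.216, adjusted p = 0.0135 in edgeR's quasi-likelihood test). Within replicates 1 and 4 the value was -0.58 and within replicates 2 and 3 it was -1.11, and neither passed. It was the 1 gene of the 10 called as lower in GMPs of both genotypes. Of the 10 log2 differences, 4 were above 0 with TMM scaling, 6 with DESeq2's size factors and 3 with upper quartile scaling, so no common direction can be given.

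For *H2-Q7* the difference lay on the other side of 0 in URE mice than in WT. It lay at 65.1, 73.0, 86.4 and 132 CPM in URE LSKs and from 105 to 219 CPM in URE GMPs, higher in GMPs in 4 of 4 pairs of the same number. The log2 difference of 0.86 (SE 0.282) missed the threshold in edgeR's quasi-likelihood test (adjusted p = 0.0563) and passed with the replicate block (adjusted p = 0.00201). With that block *H2-T23* (-0.59, adjusted p = 0.0162) and *Cd1d1* (-0.85, adjusted p = 0.0136) also passed as lower, so that 4 of the 10 were called, where 31.9% of all genes were. *B2m* had a log2 difference of 0.25, which was 0.88 within replicates 1 and 4 (adjusted p = 0.0497, passing) and 0.03 within replicates 2 and 3. *H2-K1* showed a log2 difference of 0.00 (SE 0.194), and *H2-D1* one of 0.42 (SE 0.171, adjusted p = 0.111). *Cd1d1* and *Mr1* were the genes without overlap between URE LSKs and URE GMPs, 2 of 10, where 15.4% of all genes were lower in GMPs without overlap.

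The genotype differences in LSKs and GMPs were then compared by an interaction term over all 16 libraries. *H2-Q7* passed this test, with a genotype difference larger by 2.45 on the log2 scale in GMPs than in LSKs (SE 0.394, adjusted p = 0.00771 in edgeR's quasi-likelihood test). It was 1 of the 10 genes called, where 1.22% of 15935 genes were, 0.866% as higher in this sense. With replicates 1 and 4 alone the interaction was 2.79 and passed, and with replicates 2 and 3 alone it was 2.20 and did not (adjusted p = 0.423).

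For 9 of the 10 genes the interaction lay above 0 (8 with upper quartile scaling), with a median of 0.70 against 0.00 over all genes. *Mr1* stood at 0.96 (SE 0.279), *B2m* at 0.95 (SE 0.633), *H2-K1* at 0.93 (SE 0.251) and *H2-D1* at 0.85 (SE 0.252), with adjusted p from 0.0918 to 0.660. With the replicate block, these 4 and *H2-Q7* passed, 5 of 10, where 3.97% of all genes passed in that direction. The adjusted p were then 0.0259 for *Mr1*, 0.0357 for *B2m*, 0.00285 for *H2-K1* and 0.0052 for *H2-D1*. For *B2m* the fit of replicates 1 and 4 alone gave 1.98 and that of 2 and 3 alone 0.47, neither passing. *Mr1*, *H2-K1* and *H2-D1* passed in neither set either. With the Y-linked covariate they stood at 0.99, 0.93 and 0.85 and did not pass (adjusted p = 0.0837, 0.111 and 0.166 in edgeR's quasi-likelihood test). *Tap1*, *Tap2* and *Tapbp* had interactions between 0.03 and 0.36, and that of *Tap2* changed sign under several alternatives. The WT GMP libraries enter both the genotype comparison in GMPs and the population comparison in WT. For *H2-Q7*, *Mr1* and *H2-K1*, which were higher in URE than in WT GMPs without overlap and lower in WT GMPs than in WT LSKs, the values of these 2 comparisons are therefore not independent of each other.

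**Figure D3:**
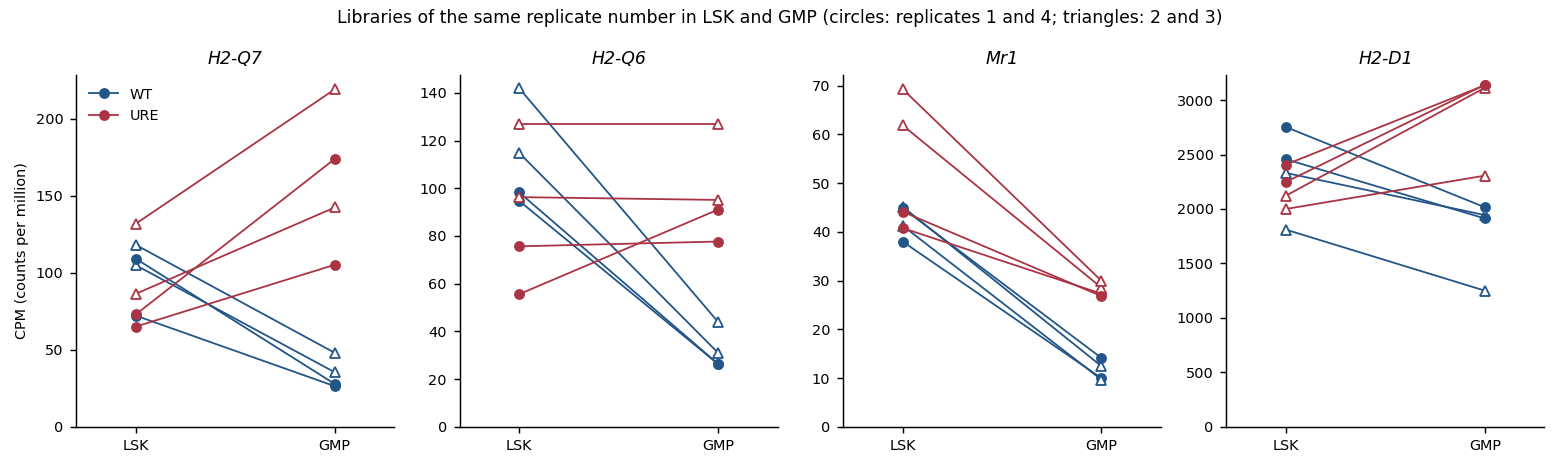
CPM of *H2-Q7*, *H2-Q6*, *Mr1* and *H2-D1* (vertical axis, from 0) in LSK and GMP libraries, with lines joining libraries of the same replicate number. All 4 WT lines of each gene fall towards GMPs, whereas the URE lines of *H2-Q7* and *H2-D1* rise.

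Reads of near-identical heavy chains may be split wrongly between genes. *H2-Q6*, the neighbour of *H2-Q7*, gave a like picture, with 31.9 ± 8.33 CPM in WT GMPs and 97.7 ± 20.9 CPM in URE GMPs (SD, n = 4) but 112 ± 21.6 and 88.6 ± 30.5 CPM in WT and URE LSKs. Its log2 fold change in GMPs was 1.64 (adjusted p = 0.00252 in edgeR's quasi-likelihood test) and its interaction 2.0 (adjusted p = 0.0138). *H2-Q7* held 51.7% ± 1.38 of the sum of both genes in WT GMPs and 61.6% ± 3.58 in URE GMPs. With all *H2-Q* genes summed before the fit, the genotype difference in GMPs was 1.90 (adjusted p = 0.00142) and the interaction 2.20 (adjusted p = 0.00648). The sum of *H2-K1*, *H2-D1* and *H2-K2* was higher in URE GMPs by 0.67 (adjusted p = 0.0378) and had an interaction of 0.89 (adjusted p = 0.0416), both passing the test. Between WT populations that sum had a log2 difference of -0.56 (adjusted p = 0.0217), short of the 1.5-fold limit and therefore not called, whereas *H2-K1* alone had -0.90. Between URE populations the *H2-Q* sum had 0.51 (adjusted p = 0.192), beside 0.86 for *H2-Q7* alone.

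The libraries also differed within groups, and 7 of the 10 genes moved in 2 blocs. After each group's mean was subtracted, *Tap1*, *Tap2*, *Tapbp* and *H2-D1* correlated with each other over the 16 libraries at Pearson's r between 0.88 and 0.98. *H2-K1*, *B2m* and *H2-Q7* formed the other bloc, at r between 0.88 and 0.90, and *Mr1*, *H2-T23* and *Cd1d1* belonged to neither. Across the blocs r was negative for all 12 pairs, from -0.70 for *B2m* with *Tap1* to -0.20 for *H2-D1* with *H2-Q7*. The 2 classical heavy chains thus stood on opposite sides, at r = -0.35 with each other. All points share their libraries and depth, and the correlations are descriptions.

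The blocs followed the replicate sets. *B2m* was lower in replicates 1 and 4 than in 2 and 3 of every group, with log2 differences of means from -1.57 to -0.68. *Tap1* was higher in replicates 1 and 4 in every group, by 0.43 in URE LSKs and up to 1.29 in WT GMPs, where its libraries lay at 71.7, 142, 240 and 252 CPM. *Mr1*, *H2-T23* and *Cd1d1* changed sign between groups in this contrast. The labels do not say what the replicate numbers stand for.

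Over all 16 libraries, and among 9072 genes whose mean log2 CPM was 3 or more, the profile most like that of *H2-K1* was *Gstk1* (r = 0.947), followed by *H2-T22*, another class I heavy chain, and *Il12a* (r = 0.905 and 0.903). For *B2m* they were *Pts*, *Stap1* and *Eef1a1* (r from 0.94 to 0.96), and for *Tap1* they were *Lmf2*, *Sh3bp5l* and *Dok1* (r from 0.96 to 0.97). After the group means were subtracted, the nearest were *Ormdl2*, *Tmbim4* and *Arhgdib* for *H2-K1*, *Eif3h*, *Rpl24* and *Igbp1* for *B2m*, and *Gpr108*, *Pde2a* and *Mybbp1a* for *Tap1*, with r from 0.95 to 0.99.

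**Figure D4:**
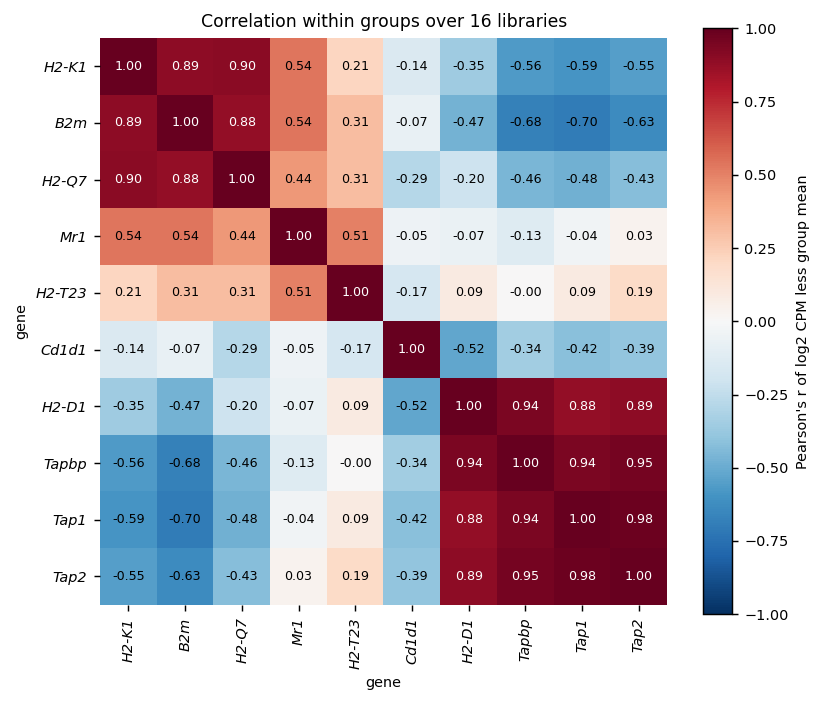
Pearson's r between pairs of the 10 genes over 16 libraries after subtracting the mean of each group from log2 CPM. The upper left block holds *H2-K1*, *B2m* and *H2-Q7*, the lower right block *H2-D1*, *Tapbp*, *Tap1* and *Tap2*, and r between the blocks is negative.

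The wider pathway was described by further lists. Of 26 other class I heavy chains listed, 21 were in the table and 10 were tested in each 2-group comparison. In WT mice 5 of these 10 were lower in GMPs than in LSKs (15.8% of all genes tested were), with a median of -1.01, namely *H2-K2* (-2.57, adjusted p = 0.000296 in edgeR's quasi-likelihood test), *H2-Q6* (-1.82), *H2-Q5* (-1.01), *H2-T22* (-1.01) and *H2-T10* (-0.98). In URE GMPs against WT GMPs *H2-Q6* was the 1 gene of 10 called, where 8.3% of all genes were. In LSKs 0 were called by edgeR, beside 6.14% of all genes, with 3 at an unadjusted p under 0.05. With the replicate block *H2-K2* was lower in URE LSKs (-1.16, adjusted p = 0.0413), as was *Fcgrt* (-0.78, adjusted p = 0.0158). In URE mice *H2-K2* alone was lower in GMPs than in LSKs (-1.20), where 12.6% of all genes were. With the replicate block the counts of lower heavy chains were 8 in WT and 3 in URE, beside 25.1% and 18.6% of all genes. Among 4 class I-like partners of B2m, *Fcgrt*, the neonatal Fc receptor, was lower in GMPs than in LSKs in both genotypes (-1.95 in each) and passed the test in both. In WT mice *Mill2* was also lower in GMPs (-4.11) and *Hfe*, a regulator of iron uptake, was higher (0.89).

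Of 11 genes of peptide loading and glycoprotein folding in the endoplasmic reticulum, 6 were higher in GMPs than in LSKs in WT mice and none was lower, with a median of 1.15, where 11.5% of all genes tested were higher. In URE mice 6 of 11 were higher, beside 9.2% of all genes. *Calr*, the lectin calreticulin, rose by 1.87 in WT and 2.83 in URE, *Pdia3*, the oxidoreductase ERp57 of the loading complex, by 1.49 and 1.31, and *Hspa5*, the chaperone BiP, by 1.98 and 1.75. *Sec61b*, a translocon subunit, and *Uggt1*, a folding sensor, also rose in both genotypes, and *Prkcsh*, a glucosidase subunit, rose in URE by 1.07. *Canx*, the chaperone calnexin, rose in WT by 1.24 and had a value of 0.60 in URE (adjusted p = 0.0936). By genotype 0 of 11 were called by edgeR in either population, beside 6.14% of all genes in LSKs and 8.3% in GMPs. In each population 1 of 11 had an unadjusted p under 0.05. With the replicate block 2 of 11 were higher in URE GMPs, where 1317 of 13829 genes were.

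Few of the proteasome genes that supply the peptides passed a test. By genotype, edgeR called 0 of the 5 genes of the immunoproteasome and its PA28 activator. Over all genes it called 6.14% in LSKs and 8.3% in GMPs. Of the 5, 0 in LSKs and 1 in GMPs had an unadjusted p under 0.05. *Psmb8* had a log2 difference of -0.36 and *Psmb9* one of 0.20 in GMPs. *Psme2*, a PA28 subunit, was higher in WT GMPs than in WT LSKs by 0.84 (adjusted p = 0.0443). Of 6 other proteasome genes, mostly constitutive counterparts, *Pomp*, an assembly factor and no such counterpart, rose in WT GMPs. *Psmb5*, a catalytic subunit, rose in URE GMPs. Of all genes, 11.5% and 9.2% rose in these comparisons. With the replicate block 4 of the 6 were higher in WT GMPs and 2 in URE GMPs. Among all genes tested, 2335 of 14767 were higher in WT GMPs with the block and 1909 of 14395 in URE GMPs.

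Among 24 transactivators and interferon signalling genes, *Nlrc5*, the class I transactivator, lay at 46.8 ± 8.62 CPM in WT LSKs, 38.4 ± 13.5 in URE LSKs, 19.1 ± 8.60 in WT GMPs and 28 ± 5.94 in URE GMPs (SD, n = 4). It was lower in WT GMPs than in WT LSKs (-1.28, adjusted p = 0.0197 in edgeR's quasi-likelihood test) and did not pass the genotype test in GMPs (0.56, adjusted p = 0.442). *Irf1*, an interferon-induced activator, behaved alike, with -1.34 between WT populations (adjusted p = 0.00563) and 0.52 by genotype in GMPs (adjusted p = 0.293). By genotype, 6 of 24 were lower in URE LSKs and 4 in URE GMPs, beside 3.76% and 3.63% of all genes. The receptor chains *Ifngr2* (-1.53 in LSKs, -1.96 in GMPs) and *Ifnar2* (-0.87 and -0.95) and the factor *Irf9* (-0.99 and -0.94) were lower in both. *Irf8*, a factor of monocyte and dendritic cell fate, was lower in both (-3.19 in LSKs and -2.51 in GMPs). *Ifngr1*, a chain of the interferon gamma receptor, was the 1 gene of 24 that rose in URE GMPs, beside 4.67% of all genes. It rose by 1.25 (adjusted p = 0.00206 in edgeR's quasi-likelihood test), from 613 ± 66.8 to 1439 ± 236 CPM.

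Many interferon-stimulated genes were lower in URE. In LSKs 12 of 19 were lower in URE and none was higher (3.76% of all genes tested were lower), with a median of -1.42, among them *Oas1a* (-2.82), *Ifit3* (-3.46), *Ifit1* (-2.20) and *Rsad2* (-2.24). *Oas2* lay at 13.2 ± 3.86 CPM in WT LSKs and at 0.0418 ± 0.0837 CPM in URE LSKs. In GMPs, where *H2-Q7*, *Mr1* and *H2-D1* were higher in URE, 3 of 19 were lower, namely *Oas1a*, *Oas2* and *Mx1*, beside 3.63% of all genes, and the median was -1.09. With the replicate block 7 were lower and 1 was higher in GMPs, where 6.82% of all genes were lower. Between WT populations 16 of 19 were lower in GMPs than in LSKs, beside 15.8% of all genes, with a median of -1.86, beside 5 of the 10 class I genes. No test compared the lists with each other. Of the 5 genes that load lipids onto CD1d, *Ap3b1*, a subunit of the AP-3 adaptor, was higher in URE LSKs by 0.75 and *Npc2*, a cholesterol transfer protein, was lower in URE GMPs (-0.69). Among MHC class II and dendritic cell genes, *Cd74* was lower in URE LSKs (-2.04) and in URE GMPs (-4.42). In LSKs it was the 1 called of 11 tested, beside 6.14% of all genes. With the replicate block 3 of 11 were called there, where 1433 of 15154 genes were.

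**Figure D5:**
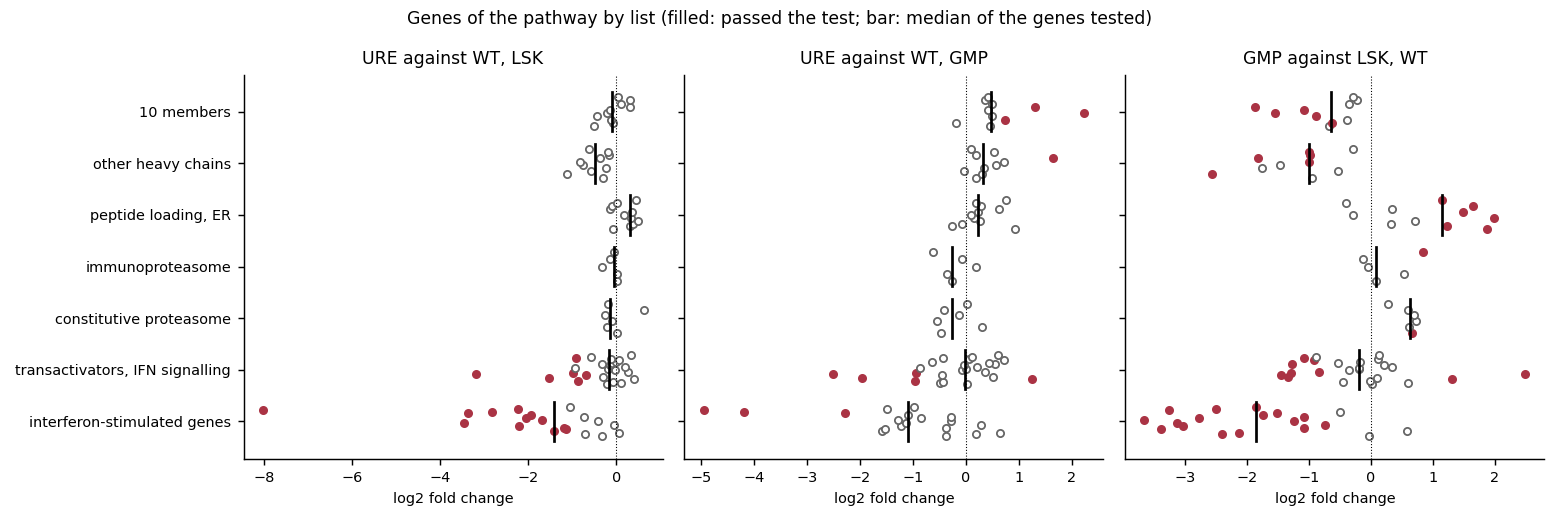
Log2 fold change of each gene tested (points), by list, for 3 of the comparisons, with filled points for genes that passed the test and bars for the medians. For URE against WT in GMPs the median of the 10 class I genes is 0.47 and that of the interferon-stimulated genes -1.09, whereas for GMP against LSK in WT both lie below 0.

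Some values carry limits of counting. The libraries were unstranded, and 24.9% of the exon length of *Tapbp* is shared with the antisense gene *Gm19412*, 14.1% of that of *Tap2* with *Gm15821* and 3.87% of that of *Tap1* with *Psmb9*, so that reads of such pairs cannot be told apart there. Counts per library ran from 200 for *Mr1* to 102049 for *B2m*.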

How the data were processed

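RNA of sorted LSKs and GMPs was amplified by a low-input poly(A) protocol and sequenced as unstranded paired ends. Per the labels and the study's methods, the authors quantified transcripts with salmon, summed them to genes with tximport and deposited estimated counts rounded to whole numbers, not normalised. The annotation release behind these counts is not given in the sources used here. The table was used as deposited, with 20028302 to 29128858 counts per library, and counting error weighs most on low genes such as *Mr1*, with 200 to 290 counts in WT GMPs.

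Each comparison was fitted on its own 8 libraries with edgeR 4.0.16 (quasi-likelihood test, TMM scaling, filterByExpr) in R 4.3.3, and the interaction on all 16, with Benjamini-Hochberg adjustment over all genes tested. Calls needed an over 1.5-fold difference and an adjusted p below 0.05 (for the interaction the adjusted p alone). CPM used joint TMM scaling, log2 CPM a prior count of 2, and lengths the union of GENCODE M21 exons (GRCm38), in which 54094 of 54347 gene identifiers were found. The study used DESeq2, which was run here (1.42.0) as an alternative, beside other scalings, filters, a joint fit, leaving out each library, replicate sets, a Y-linked covariate and paralogs summed. The fits were tested on simulated data. Promoters came from RefSeq (GRCm38.p6).

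Replicate numbers came from the labels. Libraries of the same number deviated together from their group means in every comparison (r from 0.282 to 0.766, against -0.638 to 0.477 for other pairs), so a fit with the number as a block was run, and its value is given where it changed a call of the 10 genes. The labels do not say whether LSKs and GMPs of a number came from 1 mouse, and fits without the block treated all libraries as independent. In the interaction fit the block was shared by both genotypes and so did not stand for a mouse. The 10 genes and all gene lists were chosen with earlier results of these data known, although the rule for the 10 names symbols and no measured value. Named genes were the 10 in every comparison, *Spi1*, genes of the further lists that were called (at most the 6 with the smallest adjusted p), *Nlrc5*, *Irf1*, *Psmb8*, *Psmb9*, *Calr*, *Canx* and *Pdia3*, and the 3 nearest profiles of *H2-K1*, *B2m* and *Tap1*. *H2-Q6* was followed through every comparison after its values were seen. The result of 1 marker list is not reported here.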

Additional observations from a re-analysis of the deposited data

Results flagged for a closer look

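Among 44 sets of 4 libraries (11 genes in 4 groups), 2 held a library far from the other 3. Chance flags about 1 in 20, or 2.2 of these sets, so the count is no more than chance gives. Both concern *H2-D1* in replicate 3 of GMPs, at 1250 CPM in WT against 1913 to 2016 CPM in the other WT GMP libraries and at 2306 CPM in URE against 3113 to 3140 CPM in the other URE GMP libraries. The genotype difference of *H2-D1* in GMPs was 0.60 on the log2 scale without the WT library and 0.81 without the URE library. A difference between the genotype effects in GMPs and LSKs was found for *H2-Q7*, whose interaction was 2.45 (adjusted p = 0.00771 in edgeR's quasi-likelihood test). *H2-Q7* was higher in URE in 4 of 4 pairs of the same number in GMPs and in 1 of 4 pairs in LSKs.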

How the results depend on the processing

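The count of the 10 genes called moved as follows. For URE against WT in GMPs it went from 3 to 1 with replicates 1 and 4 only and to 1 with replicates 2 and 3 only, to 2 with DESeq2's size factors, without the filter and with the Y-linked covariate and to 4 with paralogs summed, and ranged from 2 to 3 when 1 library was left out. For GMP against LSK in WT it went from 5 to 3 with replicates 2 and 3 only, to 6 with the replicate block and to 4 with DESeq2, with its size factors, with upper quartile scaling, without the filter, in the joint fit, with replicates 1 and 4 only, with the Y-linked covariate and with paralogs summed, and ranged from 4 to 5. For GMP against LSK in URE it went from 1 to 2 with DESeq2, with DESeq2's size factors and with the Y-linked covariate, to 3 in the joint fit and with replicates 1 and 4 only, to 4 with the replicate block and to 0 with replicates 2 and 3 only, and ranged from 1 to 2. It was 2 without URE GMP replicate 1 or 3 and without URE LSK replicate 2. The interaction count went from 1 to 4 with DESeq2, to 5 with the replicate block, to 3 with paralogs summed and to 0 with replicates 2 and 3 only. For URE against WT in LSKs it was 0 in every leave-out. In the counts with paralogs summed, the single sum of *H2-K1*, *H2-D1* and *H2-K2* counts for both *H2-K1* and *H2-D1*. The cause of these moves was not tested, except that sets of 2 replicates hold fewer libraries. Without division by length, *B2m* made up 32.6% and *H2-D1* 30.8% of the sum in WT LSKs. In the other groups the mean share of *H2-D1* was then the larger. It was 34.0% against 26.2% for *B2m* in URE LSKs, 34.8% against 30.4% in WT GMPs and 38.9% against 27.9% in URE GMPs. Values near 0 that did not pass turned sign. In LSKs these were *Tap1* (-0.05), *Mr1* (-0.02) and *Cd1d1* (0.23) in replicates 1 and 4 and *Cd1d1* (0.11) with the Y-linked covariate. For GMP against LSK in URE they were *H2-K1* (0.07 with DESeq2, 0.06 with its size factors, 0.005 with the replicate block, 0.04 in the joint fit, 0.21 in replicates 1 and 4, 0.30 with paralogs summed), *Tap1* (0.04, 0.03, 0.01 in the joint fit, 0.08 in replicates 1 and 4) and *Tapbp* (-0.05 with upper quartile scaling). For the interaction they were *Tap2* (-0.003 with upper quartile scaling, -0.01 without the filter, -0.14 in replicates 1 and 4) and *Cd1d1* (0.10 in replicates 2 and 3). When 1 library was left out, the values that turned ranged in LSKs from -0.08 to 0.18 for *Tapbp*, -0.28 to 0.003 for *H2-T23*, -0.03 to 0.26 for *Tap1* and -0.22 to 0.09 for *Cd1d1*. In WT *Tap2* ranged from -0.44 to 0.08. In URE *H2-K1* ranged from -0.1 to 0.14, *Tapbp* from -0.1 to 0.19 and *Tap1* from -0.12 to 0.1, and for the interaction *Tap2* ranged from -0.26 to 0.22 and *Cd1d1* from -0.37 to 0.04. Over all genes, calls by genotype in LSKs went from 930 to 1632 with DESeq2, 1433 with the block, 386 in replicates 2 and 3 and 510 with the Y-linked covariate. In GMPs they went from 1148 to 1999, 2260, 108 and 627, and the interaction from 194 to 672 with DESeq2, 1047 with the block and 2 in replicates 2 and 3. For GMP against LSK they went in WT from 4037 to 2507 and in URE from 3133 to 810 in replicates 2 and 3, and to 6041 and 4591 with the block. The pairing block changed no other call of the 10 genes than those given with the results. Of the other values, 519 kept their direction and side of the threshold and 438 did so when 1 library was left out.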
